A study of Mus musculus with 4 samples.

Results

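The genes described here are the Hox genes of the 4 mammalian clusters, taken as every row whose symbol is Hox followed by the cluster letter a, b, c or d and a paralog number between 1 and 13. The rule found 39 genes among 23203 symbols that stood on a single line of the deposited tables. Of these, 11 lie in cluster a, 10 in b, 9 in c and 9 in d. Gene expression had been profiled in the skin of adult C57BL/6 mice by QuantSeq 3′ sequencing, in which a read marks the 3′ end of a polyadenylated transcript, so that read numbers of different genes can be compared without a length term. There was 1 library for each of 4 groups: Egr1 knockout (KO, Egr1-/-) skin given sodium dodecyl sulfate (SDS) and house dust mite (HDM) extract, wild-type (WT, Egr1+/+) skin given SDS and HDM extract, KO skin given SDS, and WT skin given SDS. The groups without HDM are called naive in the labels, so the detergent SDS, which disrupts the skin barrier, was shared by all of them. Hair of the ear and neck area had been shaved, and HDM groups received 100 mg of HDM cream, with the procedure repeated 2 times per week for 3 weeks. The tissue label reads skin for every library, and neither the piece of skin that was taken nor the number of animals behind a library is given in the sources used here. The labels likewise do not give the allele beyond Egr1 knockout or its disrupted stretch.

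Hox genes encode homeodomain transcription factors that bind DNA together with PBX and MEIS partners. Their order along a chromosome follows the order of their expression from head to tail in the embryo, with low paralog numbers used at the front and high numbers at the rear and in distal limbs. Fibroblasts of adult skin keep a part of this regional code, and most facial skin, which derives from cranial neural crest, lacks it. Hoxc13 stands apart, since it is used in the hair follicle for hair shaft keratin genes throughout the skin, and it was kept out of all sums over trunk genes below. The term trunk genes is short for all Hox genes but Hoxc13, and so takes in genes used at the front, such as Hoxa2.

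The recovered library totals lay between 9428717 and 10108031 reads, so that a gene at 0 reads could still stand at up to 3 reads, or 0.297 to 0.318 RPM (reads scaled to a library of 1000000 reads). With 1 library per group there is no replicate check, and every interval below covers counting error only. The KO-labelled naive library stood apart in its zeros: of 10240 genes for which every other library had 50 or more reads, 336 were at 0 there, against 0 to 5 genes in the other libraries. Of genes with 20 to 49 reads in each other library, 24.8% were at 0 in it, against 0.0727% to 0.825% in the others, so its zeros for Hox genes, most of which have few reads, were read with that in view. Egr1 itself had 3494 reads in KO-labelled HDM and 1174 in WT HDM, and 3158 in KO-labelled naive and 1966 in WT naive skin. It was thus higher in both KO-labelled libraries, and since a 3′ tag can lie outside the disrupted stretch, this value checks no label. Genotypes are called KO-labelled for this reason, and the direction of every genotype difference rests on the label. The male and female transcripts split with the treatment. Xist had 2433 reads in KO-labelled HDM, 2195 in WT HDM, 40 in KO-labelled naive and 10 in WT naive skin, and the Y-linked Ddx3y had 1, 1, 2430 and 1925 in the same order, so treatment and sex cannot be told apart.

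Reads from 23 of the 39 Hox genes were found in at least 1 library, and 16 genes were at 0 in all 4. The numbers of genes with a read were 23 in KO-labelled HDM, 20 in WT HDM, 12 in KO-labelled naive and 16 in WT naive skin. In all, 9 genes had reads in every library, and 15 had reads in all 3 libraries when the KO-labelled naive library was set aside. Detection was rarer at higher paralog numbers, with reads for 7 of 8 genes of paralogs 1 to 3, for 11 of 15 genes of paralogs 4 to 8 and for 5 of 16 genes of paralogs 9 to 13. Of the 9 genes of paralogs 11 to 13, the 2 with reads were Hoxc13 and Hoxd11, and Hoxd11 never exceeded 4 reads. By cluster, 6 of 11 genes of a, 5 of 10 of b, 6 of 9 of c and 6 of 9 of d had reads.

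**Figure D1:**
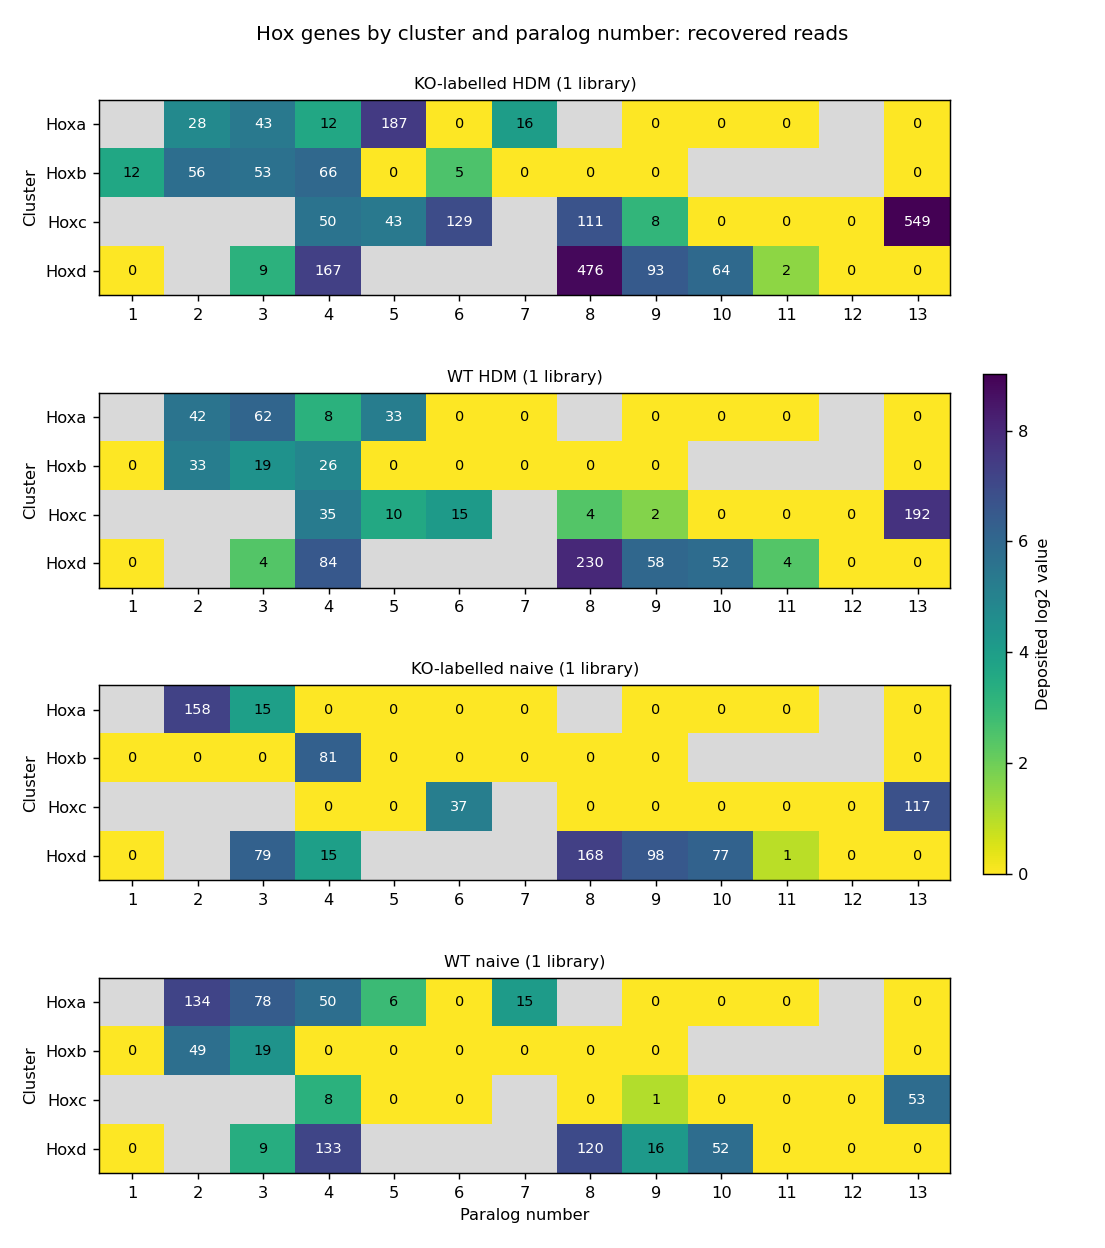
Recovered reads of 38 Hox genes by cluster and paralog number, 1 panel per library; the number in a cell is the read number, the colour follows the deposited log2 value, and grey cells hold no value. Nearly all reads sit at paralogs 1 to 10 and in Hoxc13, with the column of paralog 12 empty. Each gene of the Hoxc4 to Hoxc9 stretch has reads in both HDM libraries, at most 35 in WT HDM. In the naive libraries the stretch holds 37 reads of Hoxc6 in KO-labelled skin, and 8 of Hoxc4 and 1 of Hoxc9 in WT skin.

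In annotation of the GRCm38 assembly (mm10), the clusters are compact. Cluster a spans chr6:52155590-52260880, cluster b chr11:96194316-96368256, cluster c chr15:102921103-103036852 and cluster d chr2:74668310-74765142. RefSeq promoters of the assembly GRCm38.p6, from 250 bases before to 50 bases after the annotated start, were at hand for 22 of the 39 genes, 13 of them with reads, in 24 windows. The windows of 3 genes are shown because these genes carry the differences described below: Hoxa2 had the most reads of the trunk genes in WT naive skin, with Hoxd4 1 read behind, and was lower in both HDM libraries, Hoxd8 had the most reads over all libraries among the trunk genes, and Hoxa5 had the largest log2 difference between HDM and naive skin of any Hox gene, in KO-labelled skin. They lie on the minus strand of chr6:52164782-52165081 for Hoxa2, on the minus strand of chr6:52204538-52204837 for Hoxa5 and on the plus strand of chr2:74704365-74704664 for Hoxd8. Capitals mark matches on either strand to TAAT, the core that homeodomains bind, or to TGATNNAT, a composite of PBX and HOX half-sites.
Hoxa2: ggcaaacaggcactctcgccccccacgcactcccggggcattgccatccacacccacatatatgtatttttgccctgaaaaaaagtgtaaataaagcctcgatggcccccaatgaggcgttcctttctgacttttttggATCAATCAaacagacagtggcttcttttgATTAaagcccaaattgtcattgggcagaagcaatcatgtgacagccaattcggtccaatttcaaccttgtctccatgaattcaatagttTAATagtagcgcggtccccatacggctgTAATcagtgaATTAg
Hoxa5: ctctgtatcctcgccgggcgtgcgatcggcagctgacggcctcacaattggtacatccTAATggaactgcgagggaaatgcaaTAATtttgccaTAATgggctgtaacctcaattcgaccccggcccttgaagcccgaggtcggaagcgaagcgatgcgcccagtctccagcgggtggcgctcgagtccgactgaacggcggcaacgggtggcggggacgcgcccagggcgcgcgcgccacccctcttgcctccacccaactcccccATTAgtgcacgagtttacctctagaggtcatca
Hoxd8: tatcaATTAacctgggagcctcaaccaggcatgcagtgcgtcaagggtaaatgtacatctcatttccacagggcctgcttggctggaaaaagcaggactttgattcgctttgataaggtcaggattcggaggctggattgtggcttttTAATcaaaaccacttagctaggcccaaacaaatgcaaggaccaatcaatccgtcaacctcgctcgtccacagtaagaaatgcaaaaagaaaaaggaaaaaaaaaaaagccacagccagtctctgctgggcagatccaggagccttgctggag
These windows hold 4 TAAT cores in Hoxa2, 4 in Hoxa5 and 2 in Hoxd8, and Hoxa2 alone of them holds a TGATNNAT match. Of the 24 Hox windows, 19 held TAAT, against 58.0% of all 32851 promoters of that length, and 4 held TGATNNAT, against 8.85% of all. The EGR motif GCGTGGGCG was in none of the 24 Hox windows and in 0.612% of all promoters, and the related GCGGGGGCG was in 1 Hox window, that of Hoxb8, and in 2.91% of all. The motifs do not overlap each other in the printed windows. A match is a string of letters and not a measured site. Hox windows had a median of 14.5 CpG dinucleotides, against 7.0 over all promoters.

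Among the genes of paralogs 1 to 3, which are used in the hindbrain, the pharyngeal arches and the neck, Hoxa2 differed with treatment in both genotypes. Hoxa2, which in mice gives the second pharyngeal arch its identity and is needed for the external ear, had 28 reads in KO-labelled HDM, 42 in WT HDM, 158 in KO-labelled naive and 134 in WT naive skin. Both HDM libraries were low and both naive libraries high. It was 5.63-fold lower in KO-labelled HDM than in KO-labelled naive skin (95% interval 3.75 to 8.74) and 3.13-fold lower in WT HDM than in WT naive skin (2.20 to 4.53). The genotypes were close under naive conditions, at a ratio of 1.05 (0.825 to 1.33), and Hoxa2 was 1.72-fold lower in KO-labelled HDM than in WT HDM skin (1.04 to 2.88).

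Hoxa3, which patterns the third pharyngeal arch with the thymus and parathyroid, had 43 reads in KO-labelled HDM, 62 in WT HDM, 15 in KO-labelled naive and 78 in WT naive skin. The KO-labelled naive library was the low one: Hoxa3 stood 2.88-fold higher in KO-labelled HDM skin than there (1.57 to 5.57), and 5.87-fold lower there than in WT naive skin (3.35 to 10.98). WT HDM and WT naive differed 1.23-fold, with an interval of 0.872 to 1.75 that includes 1.

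The values of Hoxa3 come with a limit of annotation. Its whole 3′ window of 500 bases overlaps exons of the noncoding Hoxaas2 on the opposite strand, and Hoxaas2 had 37 reads in KO-labelled HDM, 49 in WT HDM, 15 in KO-labelled naive and 78 in WT naive skin. In both naive libraries that is the same number as for Hoxa3. Whether the counting used strand is not given in the sources used here, so reads of the pair cannot be told apart. Hoxb2 and Hoxb3 share 500 and 493 of these 500 bases with Hoxb3os, which has no row of its own, and Hoxa7 shares 500 with Hoxaas3, which was at 0 in all 4 libraries. For Hoxa4, 255 of the 500 bases overlap the antisense Gm29430.

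In cluster b, Hoxb2 and Hoxb3, which act in the hindbrain and its neural crest, were alike in that the KO-labelled naive library was at 0. Hoxb2 had 56 reads in KO-labelled HDM, 33 in WT HDM, 0 in KO-labelled naive and 49 in WT naive skin. Hoxb3 had 53, 19, 0 and 19 in that order. Between the WT libraries neither gene differed beyond counting error, with a 1.45-fold lower value in WT HDM for Hoxb2 (0.917 to 2.33) and a ratio of 1.02 for Hoxb3 (0.511 to 2.04). Against 3 reads in KO-labelled naive skin, Hoxb2 was at least 18.7-fold and Hoxb3 at least 17.7-fold higher in KO-labelled HDM skin. These bounds cover counting error only, and given the many zeros of the KO-labelled naive library they may not hold. Hoxb1, which marks a single hindbrain segment of the embryo, had 12 reads in KO-labelled HDM skin and 0 in the other libraries. Hoxd3, a gene of the neck vertebrae, had 9 reads in KO-labelled HDM, 4 in WT HDM, 79 in KO-labelled naive and 9 in WT naive skin. It was the only gene of paralogs 1 to 3 with its most reads in KO-labelled naive skin besides Hoxa2, 8.75-fold lower in KO-labelled HDM than there (4.38 to 19.8). Hoxd1, a gene of early hindbrain and sensory neurons, was at 0 in all 4 libraries.

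Paralogs 4 to 8 pattern the lower neck and the thorax, and the genes of cluster c among them had their most reads in KO-labelled HDM skin. Hoxc4 had 50 reads in KO-labelled HDM, 35 in WT HDM, 0 in KO-labelled naive and 8 in WT naive skin. Hoxc5 had 43 reads in KO-labelled HDM, 10 in WT HDM and 0 in each naive library. Hoxc6, used at the level of the upper thorax and the forelimb, had 129 reads in KO-labelled HDM, 15 in WT HDM, 37 in KO-labelled naive and 0 in WT naive skin. Hoxc8, a thoracic gene, had 111 reads in KO-labelled HDM and 4 in WT HDM, with 0 in both naive libraries. The KO-labelled HDM library was thus the highest for each of these 4 genes. Hoxc9, a gene of the lower thorax, followed with 8 reads in KO-labelled HDM, 2 in WT HDM, 0 in KO-labelled naive and 1 in WT naive skin. Summed, Hoxc4 to Hoxc9 reached 33.7 RPM in KO-labelled HDM, 7.0 in WT HDM, 3.73 in KO-labelled naive and 0.938 in WT naive skin.

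Within each genotype Hoxc4, Hoxc5 and Hoxc6 were higher with HDM. Against 3 reads in KO-labelled naive skin, Hoxc8 was at least 37.1-fold, Hoxc4 at least 16.7-fold and Hoxc5 at least 14.4-fold higher in KO-labelled HDM skin, and Hoxc6 was 3.50-fold higher (2.41 to 5.19). The bounds for Hoxc8, Hoxc4 and Hoxc5 carry the limit given for Hoxb2 and Hoxb3. In WT HDM skin Hoxc4 was 4.47-fold higher than in WT naive skin (2.04 to 11.1), Hoxc6 at least 5.10-fold and Hoxc5 at least 3.40-fold higher, while Hoxc8 and Hoxc9 had too few reads in WT skin for a difference to be read. Under HDM the genotypes differed too, with Hoxc8 24.2-fold (9.18 to 90.3), Hoxc6 7.49-fold (4.38 to 13.8) and Hoxc5 3.75-fold (1.85 to 8.36) higher in KO-labelled than in WT skin. Hoxc4 was an exception there, at 1.24-fold (0.792 to 1.98).

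Hoxa5, which in mice acts at the neck and upper thorax and in the lung, was likewise highest in KO-labelled HDM skin, followed by WT HDM skin. It had 187 reads in KO-labelled HDM, 33 in WT HDM, 0 in KO-labelled naive and 6 in WT naive skin. In KO-labelled skin its HDM value was at least 62.5-fold above naive, if the 0 there stands for at most 3 reads. It was 5.61-fold higher in WT HDM than in WT naive skin (2.32 to 16.4). Between genotypes under HDM it was 4.94-fold higher in KO-labelled skin (3.40 to 7.38). Its neighbours Hoxa4 and Hoxa7 did not have both HDM libraries above both naive ones. Hoxa4 had 12 reads in KO-labelled HDM, 8 in WT HDM, 0 in KO-labelled naive and 50 in WT naive skin, so that it was 6.12-fold lower in WT HDM than in WT naive skin (2.88 to 15.0). Hoxa7 had 16 reads in KO-labelled HDM and 15 in WT naive skin, and 0 in WT HDM and in KO-labelled naive skin.

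Hoxd8, a trunk gene of cluster d, was the trunk Hox gene with the most reads in 3 of the 4 libraries, with Hoxa2 and Hoxd4 ahead of it in WT naive skin. It had 476 reads in KO-labelled HDM, 230 in WT HDM, 168 in KO-labelled naive and 120 in WT naive skin, with both HDM libraries above both naive ones. It was 2.84-fold higher in KO-labelled HDM than in KO-labelled naive skin (2.38 to 3.41) and 1.96-fold higher in WT HDM than in WT naive skin (1.56 to 2.46). Between genotypes it was 1.80-fold higher in KO-labelled HDM than in WT HDM skin (1.54 to 2.12) and differed 1.24-fold between KO-labelled naive and WT naive skin, with an interval of 0.976 to 1.58. Hoxd4, which patterns the neck vertebrae, had 167 reads in KO-labelled HDM, 84 in WT HDM, 15 in KO-labelled naive and 133 in WT naive skin. Here again the KO-labelled naive library was the low one, and in WT skin the direction was the opposite: 11.2-fold higher in KO-labelled HDM than in KO-labelled naive skin (6.58 to 20.4), 1.55-fold lower in WT HDM than in WT naive skin (1.17 to 2.06). The exons of Hoxd4 and Hoxd3 share 388 bases in the annotation, though none in the 3′ window of 500 bases. Hoxb4, the cluster b relative of Hoxd4, had 66 reads in KO-labelled HDM, 26 in WT HDM, 81 in KO-labelled naive and 0 in WT naive skin. For it the WT naive library was the low one, and KO-labelled naive skin was at least 23.9-fold higher. Hoxb6 had 5 reads in KO-labelled HDM and 0 in the other libraries.

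Among paralogs 9 to 13, which serve the lower trunk and the limbs, reads of trunk genes came almost wholly from Hoxd9 and Hoxd10. Hoxd9 had 93 reads in KO-labelled HDM, 58 in WT HDM, 98 in KO-labelled naive and 16 in WT naive skin, with WT naive the low library. It was 3.70-fold higher in WT HDM than in WT naive skin (2.10 to 6.90), 5.43-fold higher in KO-labelled naive than in WT naive skin (3.18 to 9.87), and differed 1.05-fold between KO-labelled HDM and KO-labelled naive skin (0.783 to 1.41). Hoxd10 was the most even of the Hox genes, with 64 reads in KO-labelled HDM, 52 in WT HDM, 77 in KO-labelled naive and 52 in WT naive skin, and the interval of each of its 4 ratios included 1. Hoxd11 had 2 reads in KO-labelled HDM, 4 in WT HDM, 1 in KO-labelled naive and 0 in WT naive skin.

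No reads were found for Hoxa6, Hoxa9, Hoxa10, Hoxa11 and Hoxa13, for Hoxb5, Hoxb7, Hoxb8, Hoxb9 and Hoxb13, for Hoxc10, Hoxc11 and Hoxc12, or for Hoxd1, Hoxd12 and Hoxd13. They were therefore not detectable at this depth, among them Hoxa13 and Hoxd13, which pattern hands and feet, and Hoxb13, a gene of tail and prostate. Several genes at 0 lie directly between genes with reads, as Hoxa6 does between Hoxa5 and Hoxa7, and Hoxb5 between Hoxb4 and Hoxb6.

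Without Hoxc13, Hox genes gave 1676 reads (165.8 RPM) in KO-labelled HDM, 750 (79.5) in WT HDM, 757 (76.3) in KO-labelled naive and 743 (77.5) in WT naive skin. KO-labelled HDM skin stood above the other 3 libraries, whose totals lay close together. In bulk skin, fewer cells of a type and less RNA per cell cannot be told apart. Paralogs 1 to 3 made up 14.7% of these reads in KO-labelled HDM (13.1% to 16.5%), 25.2% in WT HDM (22.1% to 28.5%), 37.0% in KO-labelled naive (33.5% to 40.5%) and 46.0% in WT naive skin (42.4% to 49.7%). The intervals of the 4 libraries do not meet, and both HDM libraries lie below both naive ones. Hoxa2 gave 158 of the 280 reads of this class in KO-labelled naive and 134 of 342 in WT naive skin. In the HDM libraries it gave 28 of 247 in KO-labelled and 42 of 189 in WT skin. This order rests in part on Hoxa2. With its reads left out, the share in WT HDM skin no longer lies below that in KO-labelled naive skin, and these shares come out near level. Paralogs 4 to 8 gave 75.3% in KO-labelled HDM, 59.3% in WT HDM, 39.8% in KO-labelled naive and 44.7% in WT naive skin. Paralogs 9 to 13 gave 9.96%, 15.5%, 23.2% and 9.29% in that order, with no common direction between HDM and naive libraries.

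By cluster, the share of c was higher in both HDM libraries than in both naive ones. It made up 20.3% of the reads in KO-labelled HDM (18.4% to 22.4%), 8.80% in WT HDM (6.87% to 11.1%), 4.89% in KO-labelled naive (3.46% to 6.67%) and 1.21% in WT naive skin (0.555% to 2.29%). Each of its trunk genes was at 0 in at least 1 library, and without all such genes the share is 0.0 throughout. Cluster b was the most even in its summed share, at 11.5% in KO-labelled HDM, 10.4% in WT HDM, 10.7% in KO-labelled naive and 9.15% in WT naive skin. Its genes were not even. All of its 81 reads in KO-labelled naive skin were of Hoxb4, and its 68 in WT naive skin were of Hoxb2 and Hoxb3. Cluster a gave 19.8% in KO-labelled HDM, 23.2% in WT HDM, 26.6% in KO-labelled naive and 45.2% in WT naive skin. Cluster d, led by Hoxd8, gave 48.4%, 57.6%, 57.9% and 44.4% in that order. Cluster d gave the most reads in all but WT naive skin, where a and d did not differ beyond their intervals, 41.6% to 48.9% for a and 40.8% to 48.1% for d.

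**Figure D2:**
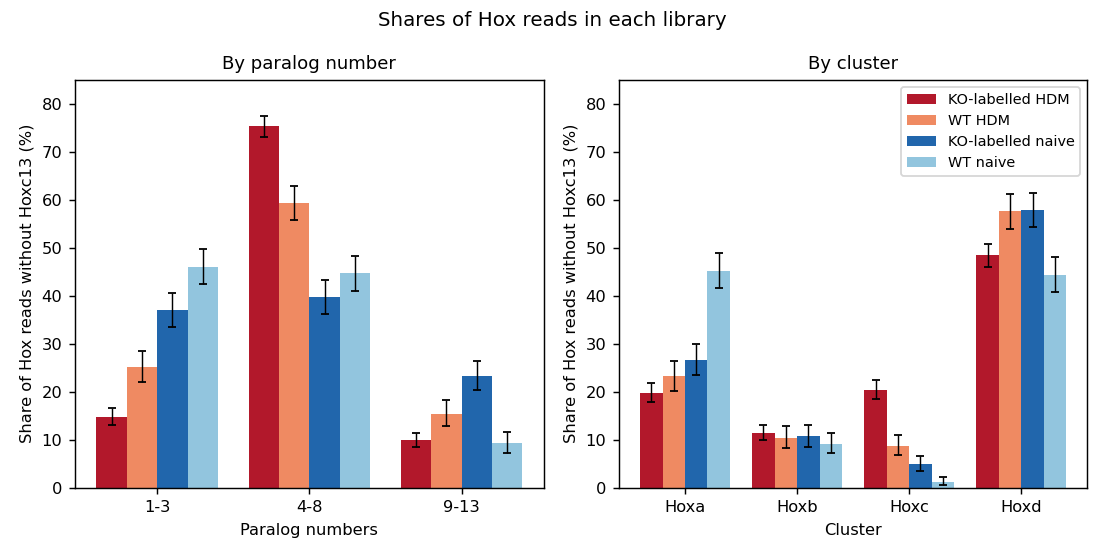
Shares in percent of the Hox reads of each library without Hoxc13, by paralog class and by cluster, with exact 95% intervals for counting error. The share of paralogs 1 to 3 lies between 14.7% and 25.2% in the HDM libraries and between 37.0% and 46.0% in the naive ones, and the share of cluster c is 20.3% and 8.80% in the HDM libraries against 4.89% and 1.21%.

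For the comparisons across genes, genes counted as measured in the upper part of the table, with a mean log2 value above the median gene's, and as different when their log2 values differed by at least 1, that is 2-fold. This left 8 Hox genes of 11600 measured genes, among them Hoxa2, Hoxa3, Hoxc13, Hoxd4, Hoxd8, Hoxd9 and Hoxd10. The other 31 had too few reads, and 11 of these are in a wider set of 19 Hox genes with at least 20 reads summed over the libraries. A gene that enters the wider set through 1 high library had to differ somewhere, so its counts describe and support nothing.

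Between KO-labelled HDM and KO-labelled naive skin, Hoxa3, Hoxc13, Hoxd4 and Hoxd8 were higher and Hoxa2 was lower by at least 2-fold, 5 of the 8 measured Hox genes, where 39.9% of all measured genes were called. Hoxd9 and Hoxd10 were not past the threshold. The median log2 difference was 1.08 over the 8 genes and 0.06 over all measured genes. In the wider set 13 were higher and 2, Hoxa2 and Hoxd3, were lower, against 51.2% of all genes called in that set, 32.6% of them higher and 18.6% lower as shares of all genes. Of the 13, 8 had 0 reads in KO-labelled naive skin, the library with many zeros, and the part of those zeros in this count was not tested.

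Between WT HDM and WT naive skin, Hoxc13 and Hoxd9 were higher and Hoxa2 was lower, 3 of 8 genes, where 27.2% of all measured genes were called. Hoxd8 lay just under the threshold at a log2 difference of 0.96, and Hoxa3, Hoxd4 and Hoxd10 lay between -0.63 and 0.03. The median was -0.13 over the 8 genes, against 0.03 over all. In the wider set 8 were higher, among them Hoxa5, Hoxb4 and the 4 genes Hoxc4, Hoxc5, Hoxc6 and Hoxc8, and 3 were lower, namely Hoxa2, Hoxa4 and Hoxa7, where 34.8% of all genes were called, 18.2% higher and 16.6% lower. All of the lower genes belong to cluster a. Hoxa2, Hoxa5, Hoxc4, Hoxc5, Hoxc6, Hoxc8 and Hoxc13 were past the threshold in the same direction in both genotypes, 7 of the 19 genes of the wider set, where 18.1% of all genes in that set were. Of these, Hoxc8 rested on 4 reads against 0 in WT skin, at least 1.36-fold.

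Between KO-labelled HDM and WT HDM skin, Hoxc13 was higher and the other 7 measured Hox genes were not past the threshold, where 7.72% of all measured genes were called, 3.06% higher and 4.66% lower. The median log2 difference was 0.46 over the 8 genes and -0.01 over all. In the wider set 8 were higher and 0 lower, where 15.3% of all genes were called, 6.80% higher and 8.49% lower. The 8 were Hoxa5, Hoxa7, Hoxb3, Hoxb4, Hoxc5, Hoxc6, Hoxc8 and Hoxc13, with folds given above for the first and the HOXC genes, 2.43 for Hoxb3 (1.42 to 4.35) and 2.21 for Hoxb4 (1.39 to 3.63). Hoxa7 was at least 4.65-fold higher in KO-labelled HDM skin. This comparison does not use the naive libraries.

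Between KO-labelled naive and WT naive skin, 1 of the 8 genes, Hoxd9, was higher and 3 were lower, Hoxa3 and Hoxd4 among them, where 30.7% of all measured genes were called. Scaled to library totals, the 4 called were 2 higher, with Hoxc13 added, and 2 lower, Hoxa3 and Hoxd4. Hoxd4 was 10.0-fold lower (5.85 to 18.4) in KO-labelled naive skin. The median was 0.19 over the 8 genes and -0.03 over all. In the wider set 4 were higher, namely Hoxb4, Hoxc6, Hoxd3 and Hoxd9, and 9 were lower, where 42.6% of all genes were called, 14.5% higher and 28.2% lower. Of the 9 lower genes, 6 had 0 reads in KO-labelled naive skin: Hoxa4, Hoxa5, Hoxa7, Hoxb2, Hoxb3 and Hoxc4. Hoxc6 was at least 10.9-fold and Hoxd3 7.78-fold higher (3.90 to 17.6) in KO-labelled naive skin. The naive libraries are shared with the comparisons of HDM and naive skin, so a low value in one of them enters both.

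**Figure D3:**
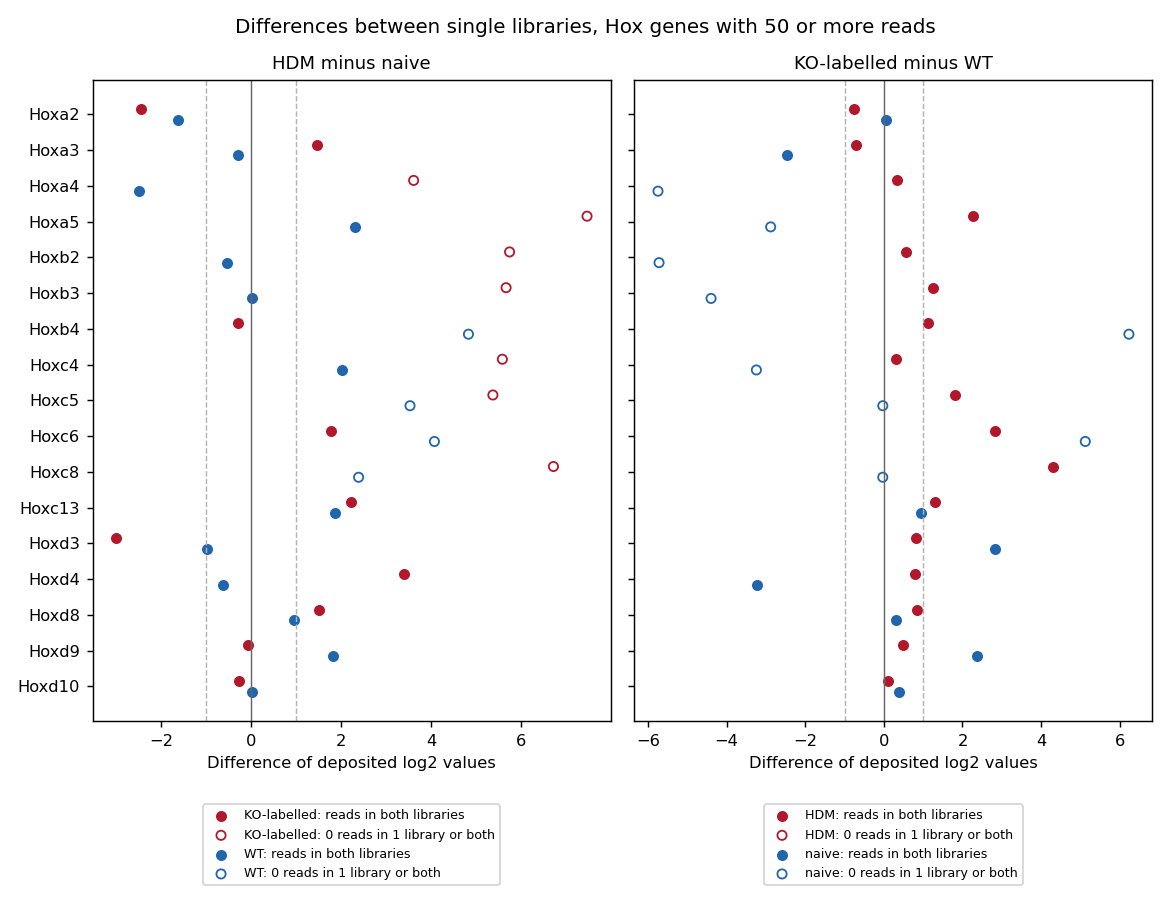
Differences of the deposited log2 values between single libraries for 17 Hox genes with 50 or more reads in all, HDM minus naive on the left and KO-labelled minus WT on the right; open points have 0 reads in 1 library or both, and dashed lines mark a difference of 1. Hoxa2 lies left of -1 in both genotypes on the left, Hoxc13 right of 1 in both, and most open points belong to the KO-labelled naive library.

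As a secondary result, limma was run on the 4 libraries together with treatment and genotype as additive factors. Each gene then keeps 1 residual degree of freedom, and both genotypes are taken to respond alike. None of the 8 Hox genes had an adjusted p under 0.05 for treatment, where 4.12% of all measured genes did, and 0 did for genotype, where 0.0% did. At an unadjusted p under 0.05 there were 2 Hox genes for treatment and 0 for genotype, of 2367 and 381 genes in all. The 2 were Hoxc13, with a log2 difference of 2.05 ± 0.59 (SE) and limma adjusted p = 0.0951, and Hoxd8, with 1.23 ± 0.52 (SE) and limma adjusted p = 0.227. Hoxa2 had a log2 difference of -2.04 ± 0.91 (SE) with limma adjusted p = 0.2504. For genotype the largest log2 difference in size among the 8 was that of Hoxa3, at -1.59 ± 1.26 (SE).

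Hoxc13, the hair follicle member, was the most abundant Hox gene in KO-labelled HDM skin. It had 549 reads in KO-labelled HDM, 192 in WT HDM, 117 in KO-labelled naive and 53 in WT naive skin, or 54.3, 20.4, 11.8 and 5.53 RPM. Both HDM libraries were above both naive ones, and the KO-labelled library was the higher one in each pair. It was 4.71-fold higher in KO-labelled HDM than in KO-labelled naive skin (3.85 to 5.80) and 3.70-fold higher in WT HDM than in WT naive skin (2.72 to 5.11). KO-labelled HDM skin stood 2.49-fold above WT HDM skin (2.11 to 2.95). KO-labelled naive skin was 1.96-fold above WT naive skin (1.40 to 2.76), a log2 difference of 0.96 as deposited and 1.08 when scaled to library totals.

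Hair shaft keratins, structural genes of the growing hair, were higher in both HDM libraries than in both naive ones, as Hoxc13 was. Their sums were near level between the naive libraries, where Hoxc13 was 1.96-fold higher in KO-labelled skin. The 12 keratins of the list summed to 2144 RPM in KO-labelled HDM, 983 in WT HDM, 35.5 in KO-labelled naive and 32.5 in WT naive skin. The near level naive sums rest on a single keratin, with 93 of 352 reads in KO-labelled naive and 195 of 312 in WT naive skin. Without it the sum is higher in KO-labelled naive skin, as Hoxc13 was. Of the 12, 7 were at 0 in KO-labelled naive and 3 in WT naive skin. Krt81, the most abundant, had 8456 reads in KO-labelled HDM, 3050 in WT HDM, 71 in KO-labelled naive and 50 in WT naive skin. Of 14 measured members of the list of hair shaft keratins and regulators, 13 were higher in KO-labelled HDM than in KO-labelled naive skin and 12 in WT HDM than in WT naive skin, with 0 and 1 lower. Between KO-labelled HDM and WT HDM skin 6 were higher and 0 lower, and between KO-labelled naive and WT naive skin 4 were higher and 7 lower. The shares of all measured genes called in these comparisons were 39.9%, 27.2%, 7.72% and 30.7% in that order. The median log2 differences were 4.68, 5.32, 0.76 and -0.57 in this order of comparisons, against 0.06, 0.03, -0.01 and -0.03 over all measured genes. The number of growing follicles in each piece of skin was not measured, and its part in the level of Hoxc13 was not tested.

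The noncoding transcripts of the clusters include neighbours of the anterior genes. Of 10 such transcripts in the tables, 3 were measured. Hotairm1, a neighbour of Hoxa2, had 92 reads in KO-labelled HDM, 83 in WT HDM, 195 in KO-labelled naive and 305 in WT naive skin. Hoxd3os1, an antisense neighbour of Hoxd3 and Hoxd4, had 71, 45, 338 and 267 in that order. Both were lower in the HDM libraries, as Hoxa2 was: Hotairm1 was 2.11-fold (1.64 to 2.74) and Hoxd3os1 4.75-fold lower (3.66 to 6.22) in KO-labelled HDM than in KO-labelled naive skin, and 3.60-fold (2.82 to 4.65) and 5.81-fold lower (4.23 to 8.16) in WT HDM than in WT naive skin. Between genotypes neither reached 2-fold. The third measured transcript is Hoxaas2, described with Hoxa3. Hoxd3os1 shares 347 exonic bases with Hoxd3 and with Hoxd4 on the opposite strand, none of them in the 3′ windows of these genes.

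Among Hox cofactors, TALE homeodomain proteins that bind DNA with HOX proteins, 8 of 9 were measured. In KO-labelled HDM against KO-labelled naive skin 1 was higher and 3 lower, in WT HDM against WT naive skin 0 higher and 3 lower, in KO-labelled HDM against WT HDM skin 0 higher and 1 lower, and in KO-labelled naive against WT naive skin 1 higher and 2 lower. The shares of all measured genes called in these comparisons were 39.9%, 27.2%, 7.72% and 30.7% in that order. Meis2, a partner of HOX proteins in limbs and hindbrain, had 191 reads in KO-labelled HDM, 377 in WT HDM, 648 in KO-labelled naive and 666 in WT naive skin and was 3.38-fold lower in KO-labelled HDM than in KO-labelled naive skin (2.87 to 3.996). Meis3 had 31, 22, 153 and 47 reads in that order and was lower with HDM in both genotypes, 4.92-fold in KO-labelled (3.33 to 7.49) and 2.09-fold in WT skin (1.24 to 3.65).

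Chromatin regulators of the Hox clusters, from the Trithorax and Polycomb groups that keep Hox genes active or silent, were measured for all 21 members. Higher and lower by 2-fold were 2 and 2 in KO-labelled HDM against KO-labelled naive skin, 1 and 3 in WT HDM against WT naive skin, 1 and 0 in KO-labelled HDM against WT HDM skin, and 3 and 1 in KO-labelled naive against WT naive skin. Of the 21, 4 were thus called in the first comparison, where 39.9% of all measured genes were, 4 in the second, where 27.2% were, 1 in the third, where 7.72% were, and 4 in the last, where 30.7% were. Kmt2a, a Trithorax methyltransferase of Hox genes, had 1517 reads in KO-labelled HDM, 1082 in WT HDM, 1343 in KO-labelled naive and 1793 in WT naive skin. Of 12 upstream regulators, 5 were measured, with 2 higher and 0 lower in KO-labelled HDM against KO-labelled naive skin, 1 and 0 in WT HDM against WT naive skin, 0 and 0 under HDM between genotypes, and 0 and 2 in KO-labelled naive against WT naive skin, against the same shares of all genes. Rara, a retinoic acid receptor through which retinoids act on anterior Hox genes, had 381 reads in KO-labelled HDM, 282 in WT HDM, 47 in KO-labelled naive and 247 in WT naive skin. As for Hoxa3 and Hoxd4, its low library was KO-labelled naive.

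Other positional transcription factors gave a regional frame for the Hox genes. Of 23 head and pharyngeal arch genes 5 were measured, with 1 higher and 3 lower in KO-labelled HDM against KO-labelled naive skin, 0 and 3 in WT HDM against WT naive skin, 1 and 4 in KO-labelled HDM against WT HDM skin, and 0 and 1 in KO-labelled naive against WT naive skin. The shares of all measured genes called were again 39.9%, 27.2%, 7.72% and 30.7%. Dlx5, which acts in the pharyngeal arches, had 40 reads in KO-labelled HDM, 79 in WT HDM, 243 in KO-labelled naive and 193 in WT naive skin, with both HDM libraries low as for Hoxa2. The other most-read genes of the list did not share this. Dlx2, also a gene of the arches, had 254 reads in KO-labelled HDM, 91 in WT HDM, 0 in KO-labelled naive and 185 in WT naive skin, and Otx1, a gene of the anterior head, had 31, 126, 63 and 91 in that order. Of 17 limb and trunk genes 5 were measured, with 0 higher and 0 lower in KO-labelled HDM against KO-labelled naive skin, 2 and 1 in WT HDM against WT naive skin, 0 and 1 in KO-labelled HDM against WT HDM skin, and 1 and 0 in KO-labelled naive against WT naive skin, against the same shares. Tbx15, a regulator of the pattern of coat colour from back to belly in mice, had 371 reads in KO-labelled HDM, 261 in WT HDM, 602 in KO-labelled naive and 428 in WT naive skin. Zic1, a gene of the dorsal neural tube and somites of the embryo, was below the measured level, with 160 reads in KO-labelled HDM, 14 in WT HDM, 50 in KO-labelled naive and 0 in WT naive skin. Its highest library was KO-labelled HDM, as for Hoxc6, and it was 9.96-fold higher there than in WT HDM skin (5.76 to 18.6).

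Markers of other tissues of the sampled area moved with the libraries. The 10 cartilage markers other than Sox9, which hair follicles also express, summed to 6.43 RPM in KO-labelled HDM, 1522 in WT HDM, 2322 in KO-labelled naive and 2669 in WT naive skin, and 5, 2, 2 and 1 of them were at 0 in that order. Chad, a cartilage matrix protein, had 1 read in KO-labelled HDM, 1651 in WT HDM, 2765 in KO-labelled naive and 4805 in WT naive skin, and the defining collagen Col2a1 had 0, 143, 16 and 188. With Sox9, the list summed to 552 RPM in KO-labelled HDM, 2043 in WT HDM, 2668 in KO-labelled naive and 3332 in WT naive skin. The library with the fewest reads of cartilage markers was the one with the most reads of Hoxa5 and Hoxc4 to Hoxc9 and the fewest of Hoxa2. WT HDM skin kept 1522 RPM of cartilage markers. It too had fewer reads of Hoxa2 than WT naive skin, 42 against 134, and more of Hoxa5, 33 against 6. The 9 salivary and lacrimal gland markers summed to 48.4 RPM in KO-labelled HDM, 119 in WT HDM, 7725 in KO-labelled naive and 64557 in WT naive skin, with 5, 1, 3 and 0 of them at 0. A single marker gave 413 of the 489 reads in KO-labelled HDM and 462 of the 1119 in WT HDM skin. That marker had 868 reads in KO-labelled naive and 359 in WT naive skin. Lpo gave 71 reads in KO-labelled HDM and 487 in WT HDM skin. Markers of dermal fibroblasts, in which adult skin keeps its Hox code, summed to 5498 RPM in KO-labelled HDM, 7065 in WT HDM, 40745 in KO-labelled naive and 19174 in WT naive skin, and none of the 7 was at 0. Of the 7, 5 fell by at least 2-fold with HDM in the KO-labelled libraries and 0 rose. In the WT libraries 3 fell, 1 rose and 3 did neither. Of all measured genes, 18.2% were lower and 21.7% higher with HDM in the KO-labelled libraries, and 12.7% were lower and 14.5% higher in the WT libraries. The number of fibroblasts was not measured. The collagen Col1a1 had the most reads of the list. It had 19878 reads in KO-labelled HDM, 16576 in WT HDM, 174445 in KO-labelled naive and 92467 in WT naive skin. Keratinocyte markers summed to 14936, 19557, 3805 and 6177 RPM in that order, with none of the 6 at 0. Both main cell types of skin were thus present in every library. Skeletal muscle markers, from muscle whose place in the sampled piece is not given, lay between 2922 and 4704 RPM. Neurons and Schwann cells carry Hox codes of their own: neuron markers summed to 46.7 in KO-labelled HDM, 60.1 in WT HDM, 108 in KO-labelled naive and 44.8 in WT naive skin, and Schwann cell markers to 282, 341, 1626 and 1596. Adipocyte markers summed to 1013, 457, 3786 and 1019 in that order, and T and B cell markers to 6.63, 15.9, 21.4 and 8.86. The part of these tissues and of the place of sampling in the Hox differences was not tested.

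**Figure D4:**
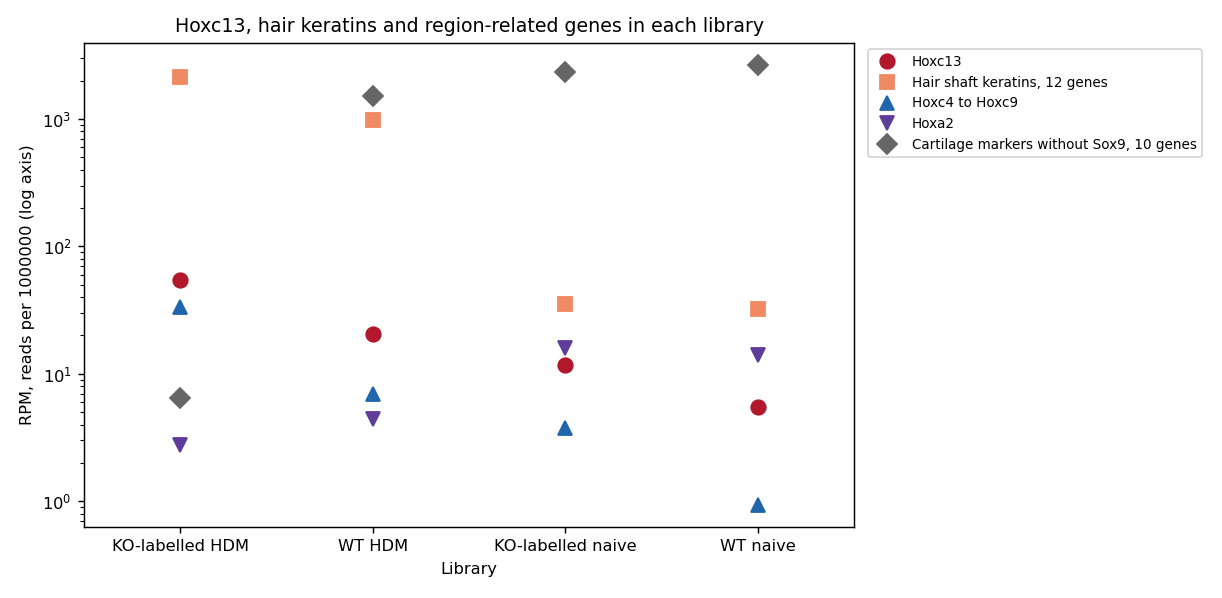
Levels in RPM (log axis) in the 4 libraries for Hoxc13, the sum of 12 hair shaft keratins, the sum of Hoxc4 to Hoxc9, Hoxa2 and the sum of 10 cartilage markers without Sox9. Hoxc13 and the hair keratins are higher in both HDM libraries than in both naive ones, Hoxa2 is lower, and cartilage markers stand at 6.43 in KO-labelled HDM skin, where Hoxc4 to Hoxc9 reach 33.7.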

How the data were processed

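Skin RNA of 4 groups, 1 library each, had been made into QuantSeq 3′ libraries from 500 ng of total RNA, per the labels' protocols. The authors deposited a log2 value with 3 decimals for each of 23282 lines; how they were normalized, against which annotation and with what use of strand is not given in the sources used here. Per the submitters' processing notes, the tools include Bowtie2 and bedtools and the build is mm10, with no version or role named. Low values, after 2 to the power of the value minus 1, are whole multiples of a step of 0.939 in KO-labelled HDM, 1.08 in WT HDM, 0.936 in KO-labelled naive and 1.06 in WT naive, which makes each deposited log2 value the log2 of a scaled read number plus 1. Division by the step recovered reads: up to 200 reads, the share of genes within 0.1 of a whole read was 99.0%, 98.9%, 96.2% and 99.3% in that order. Recovered totals were 10108031, 9428717, 9926595 and 9592300. Larger read numbers are approximate, and values just above 0 that came to no read were taken as 0. No column of another sample was used, and 35 symbols on 79 lines were left out.

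With 1 library per group no single comparison of groups could be tested; the additive model below takes all 4 libraries together. A difference is that of the deposited log2 values, called at 1 or more in size among the 11600 genes with a mean above 5.11, the median of all genes. A fold is the ratio of the deposited linear values, with an exact Clopper-Pearson 95% interval conditional on the summed reads, which covers counting error only; reads without molecular identifiers are not independent molecules. A gene at 0 was set to 3 reads, which gives a bound, and no fold was given where both libraries were at or under that. This bound covers counting error only and may not hold for the many zeros of the KO-labelled naive library. Shares have exact Clopper-Pearson 95% intervals. The additive model was fitted with limma 3.58.1 in R 4.3.3 with an intensity trend and Benjamini-Hochberg adjustment over all 11600 genes. Other steps used Python 3.11.15 with numpy 2.4.6, pandas 2.3.3, scipy 1.17.1 and matplotlib 3.10.9. Scripts were tested on simulated data. Promoter sequences are those of RefSeq, and gene positions and overlaps come from GENCODE M21, both on GRCm38.

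Members and gene lists were chosen with earlier results of these data known. Every Hox gene is accounted for, and those with at least 50 reads over the 4 libraries are described in every library, except that the values of 1 Hox gene and of 1 Hox cofactor are not reported here and enter counts, medians and sums only; of the context lists, only the 3 with the most reads and the 2 with the largest difference in a comparison are named. The sum of cartilage markers without Sox9 was chosen after their values were seen. Alternatives were another filter, scaling or pseudocount, 3 reads in place of 0, other settings of the model, and sums without some members.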

Additional observations from a re-analysis of the deposited data

Results flagged for a closer look

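In 5 of the 8 measured Hox genes, among them Hoxa3, Hoxd4, Hoxd9 and Hoxd10, the difference between HDM and naive skin had opposite signs in KO-labelled and WT skin. With 1 library per group this difference between genotypes was not tested. The share of all measured genes with opposite signs was not computed, so the count has no background beside it and supports nothing. On the log2 scale, the KO-labelled response minus the WT response was 4.02 for Hoxd4, a gene of the neck vertebrae. It was 1.76 for Hoxa3, a gene of the third pharyngeal arch, where the counting interval of the WT ratio includes 1. For Hoxd9, a gene of the lower trunk and limbs, it was -1.895, with KO-labelled skin near level and WT skin higher with HDM. For Hoxd10 it was -0.287, the smallest in size, and the counting intervals of the ratios behind it include 1. The interval of Hoxd9 in KO-labelled skin includes 1 as well. The KO-labelled naive library, in which many genes stood at 0, had the fewest reads of the 4 for Hoxa3 and Hoxd4.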

How the results depend on the processing

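Each Hox gene call rests on single libraries, and leaving out a library empties a group. No paired analysis was possible because each group holds 1 library, whose number pairs nothing. The filter moved the counts most. With at least 20 reads summed, Hox genes past 2-fold were 15 in KO-labelled HDM against KO-labelled naive skin, 11 in WT HDM against WT naive, 8 in KO-labelled HDM against WT HDM and 13 in KO-labelled naive against WT naive, against 5, 3, 1 and 4 as reported. Each is of 19 Hox genes, against 8 as reported. With no filter they were 18 of 23, 12 of 21, 11 of 23 and 14 of 19, where 53.5%, 41.1%, 22.6% and 46.3% of all genes were called. The median difference in KO-labelled HDM against KO-labelled naive skin, 1.08 as reported, was 2.225 with at least 20 reads and 2.525 with no filter. With no filter it was 0.61 in WT HDM against WT naive and -1.05 in KO-labelled naive against WT naive skin. With genes at 0 set to 3 reads these medians were 1.78 with at least 20 reads and 1.685 with no filter in the first comparison, and 0.34 and -0.95 with no filter in the others. The 3 changes of scaling or pseudocount, and 3 reads in place of 0, moved none of these counts by more than 1.5 times, and of the medians only that of KO-labelled naive against WT naive skin, which was 0.31 scaled to library totals, against 0.19 as reported. Without Hoxd8, the trunk gene with the most reads, paralogs 1 to 3 held 20.6%, 36.4%, 47.5% and 54.9% in KO-labelled HDM, WT HDM, KO-labelled naive and WT naive skin, and cluster c held 28.4% in KO-labelled HDM and 12.7% in WT HDM. Without genes at 0 in any library, paralogs 1 to 3 held 43.9% in KO-labelled naive skin and cluster c held 0.0 in all 4 libraries, since none of its genes remained. Genes with reads in every library were 15 without KO-labelled naive, a choice made after seeing the data. Of 288 alternatives for single genes, 282 changed no call and none changed direction. Among the 5 that lost a call were those of Hoxc8 in WT skin and of Hoxa5 in naive skin, and the 1 that gained one was of Hoxc13 in naive skin. The additive fit called 0 Hox genes with every setting, with 3 at an unadjusted p under 0.05 for treatment at 20 reads or without the trend. Scaled to library totals, the share of higher among all called genes in KO-labelled HDM against WT HDM skin was 50.0%, against 39.7% as deposited, and the median of all genes in KO-labelled naive against WT naive skin moved to 0.09, against -0.03. At these depths a Hox gene at 0 may still stand at 3 reads, and in KO-labelled naive skin possibly above that.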
